A study of Rattus norvegicus with 372 samples.

Results

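The cytochrome P450 4A (CYP4A) enzymes of the rat were followed through 28 chemical treatments of primary hepatocytes. The members were taken by name, as the genes Cyp4a1, Cyp4a2, Cyp4a3 and Cyp4a8, with no cutoff on a measured value. Of these 4 genes, 3 had a probe in either assay and 2, Cyp4a1 and Cyp4a2, had enough reads to be tested among 10191 genes. CYP4A enzymes sit in the membrane of the endoplasmic reticulum and put a hydroxyl group on the last carbon of a fatty acid, the first step of omega oxidation. Alcohol and aldehyde dehydrogenases then turn the product into a dicarboxylic acid, which peroxisomes shorten by beta oxidation. In rodent liver the CYP4A genes are classical targets of the peroxisome proliferator-activated receptor alpha (PPARα), a nuclear receptor that binds fatty acids and drugs called peroxisome proliferators.

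The hepatocytes came from 2 male Wistar rats whose age the sources used here do not give, each rat being a batch of its own, and were cultured between layers of collagen in a medium with insulin, dexamethasone and epidermal growth factor. The groups were acetaminophen (400 and 10000 µM), caffeine (400 and 10000 µM), chloramphenicol (18 and 450 µM), diclofenac (16 and 400 µM), doxorubicin (0.08 and 2 µM), indomethacin (12 and 300 µM), isoniazid (400 and 10000 µM), ketoconazole (0.6 and 15 µM), naproxen (80 and 2000 µM), ranitidine (160 and 4000 µM), simvastatin (2.4 and 60 µM), sulfasalazine (4 and 100 µM), valproic acid (400 and 10000 µM) and WY14643 (8 and 200 µM), each for 24 h with 0.5% DMSO in 3 wells per batch. Vehicle wells held 0.5% DMSO and further wells held medium alone, 3 wells of each in batch 1 and 6 of each in batch 2. Lysate of the same wells was read by the whole-transcriptome (WT) assay and by the smaller surrogate (ST) assay of TempO-Seq, in which a pair of detector oligos is ligated on its target RNA and the ligated products are counted. Wells of a batch share a rat, so that the p-values below measure mostly the spread between wells.

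Read depth ranged from 2.71 to 8.95 M reads in batch 1 and from 2.29 to 8.98 M in batch 2 by WT assay, and from 0.558 to 2.01 M and 0.984 to 2.21 M by ST assay. At the median depth 3 counts, taken as the floor of detection, stood by WT assay for 0.483 and 0.416 CPM (counts scaled to 1 M reads of a well) in batch 1 and 2 and for 2.58 and 1.91 CPM by ST assay. The summed CPM of 6 hepatocyte markers (Alb, Ttr, Apoa1, Cps1, Tat and Serpina1), all of them above the floor, lay between 28159.9 and 36633 in vehicle wells, against 25.5 to 45.3 for 5 Kupffer cell markers and 1.38 to 3.37 for 4 endothelial markers. Of 5 stellate cell markers 4 had a probe and 2 stood above the floor, and of 4 cholangiocyte markers, 33.1 to 49.0 CPM together, Krt19 and Krt7 lay at or under it. For some treatments the range of summed markers that lay below or above every vehicle well is given beside the result, and their part in it was not tested. Where no range is given, the markers may also have lain outside the vehicle wells. In batch 1 the vehicle wells shared 1 of the 2 culture plates, so that acetaminophen, chloramphenicol, indomethacin, ketoconazole, sulfasalazine and WY14643 had no vehicle well on their own plate, and a plate effect there cannot be told apart from the treatment. All comparisons with vehicle share the same 9 vehicle wells.

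The RefSeq annotation of the rat (GRCr8) places 14 entries from Cyp4a8 to Cyp4a1 on 1 stretch of chromosome 5, of which 8 carry a CYP4A name and 3 of those 8 are pseudogenes. The protein-coding CYP4A genes there are Cyp4a8, Cyp4a2, Cyp4a2l1, Cyp4a3 and Cyp4a1. The 250 bases before the start of the 4 genes whose promoters the RefSeq tables hold are shown because they let the close copies be compared base by base, and because PPARα is known to bind, with its partner RXR, repeats of the half-site AGGTCA. All 4 lie on the minus strand of GRCr8, at chr5:134170909-134171158 (Cyp4a2), chr5:134257827-134258076 (Cyp4a2l1), chr5:134352237-134352486 (Cyp4a3) and chr5:133970227-133970476 (Cyp4a8). The sequences run 5′ to 3′ toward the gene, and capitals mark the half-site AGGTCA.
Cyp4a2: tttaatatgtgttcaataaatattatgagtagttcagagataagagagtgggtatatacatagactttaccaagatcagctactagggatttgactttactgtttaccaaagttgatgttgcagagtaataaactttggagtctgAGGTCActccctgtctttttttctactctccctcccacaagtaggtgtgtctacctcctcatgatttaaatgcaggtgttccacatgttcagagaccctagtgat
Cyp4a2l1: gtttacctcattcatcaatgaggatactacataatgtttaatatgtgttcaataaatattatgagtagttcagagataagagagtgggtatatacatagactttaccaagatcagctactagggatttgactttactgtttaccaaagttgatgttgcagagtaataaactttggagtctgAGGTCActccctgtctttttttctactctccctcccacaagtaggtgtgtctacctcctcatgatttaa
Cyp4a3: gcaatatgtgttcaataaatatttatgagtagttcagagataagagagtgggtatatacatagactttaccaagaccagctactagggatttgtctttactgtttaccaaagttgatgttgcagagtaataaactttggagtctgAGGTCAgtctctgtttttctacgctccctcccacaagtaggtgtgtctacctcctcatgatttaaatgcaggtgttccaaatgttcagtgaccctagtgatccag
Cyp4a8: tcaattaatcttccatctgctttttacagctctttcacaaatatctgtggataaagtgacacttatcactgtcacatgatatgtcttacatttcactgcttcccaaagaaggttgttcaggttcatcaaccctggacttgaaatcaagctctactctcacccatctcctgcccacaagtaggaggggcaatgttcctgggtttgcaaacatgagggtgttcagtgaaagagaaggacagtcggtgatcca
The letters AGGTCA, searched on both strands, occurred once in the promoters of Cyp4a2 and Cyp4a3, 100 bases before the start in each, once in that of Cyp4a2l1, 64 bases before the start, and not in the Cyp4a8 window. Of all 33469 promoters in the table, 14.1% held the half-site. The direct repeat AGGTCANAGGTCA, with 1 base between the half-sites, was in none of the 4 windows and in 0.0508% of all promoters. Imperfect repeats and bases outside these windows were not searched, so a response element of these genes is not excluded. Over the 214 bases that align, the promoters of Cyp4a2 and Cyp4a2l1 were identical, those of Cyp4a2 and Cyp4a3 shared 236 of 245 bases (96.3%), and those of Cyp4a2 and Cyp4a8 shared 68.4%. Cyp4a1 was not matched in the table of promoters.

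Resting levels of the CYP4A genes were low in vehicle wells. Cyp4a1, a medium- and long-chain fatty acid omega hydroxylase and the form classically induced by peroxisome proliferators, read 1.09, 1.64 and 2.5 CPM in the vehicle wells of batch 1 and, over the 6 wells of batch 2, 0.890 to 2.36 CPM with a median of 1.71. In counts, that is 6 to 16 reads per well. Cyp4a2, which hydroxylates the same kind of substrate, read 10.0, 10.7 and 12.9 CPM in batch 1 and 8.12 to 13.6 CPM in batch 2, with a median of 10.5. The vehicle wells of both rats thus overlapped for either gene. The counts of Cyp4a2 add 3 probes, called here the first, the second and the third by their reads, which held 90.2%, 9.35% and the remainder of its vehicle reads in batch 1. Because each probe captures its target with its own yield, levels of Cyp4a1 and Cyp4a2 are not compared here as amounts of RNA.

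Cyp4a8, a further member of the cluster, was close to undetected. By WT assay its probe had a read in 12 wells, no more than 2 reads in any well and 13 reads in all, and no read in the other 174 wells. By ST assay a different probe had reads in 82 wells, 120 in all, and none in 104, and the highest count, 5 reads, fell in a well with 200 µM WY14643. Counts of this size are at or near the floor in both assays, and Cyp4a8 was not tested in either. The condition with the most of these ST reads, named after its values were seen, was 10000 µM caffeine, with 1 to 4 reads in each of 6 wells and 15 in all, against 3 reads over the 9 vehicle wells. That is a CPM ratio of 8.04 with a 95% counting interval of 2.27 to 43.3, which covers counting error only and takes no account of the choice among 29 conditions. With 200 µM WY14643 there were 10 reads and a ratio of 3.91 (1.01 to 22.1). With 2000 µM naproxen there were 2 reads and a ratio of 0.976 (0.0815 to 8.52). With so few reads in vehicle wells these intervals are wide, and they bound a response of Cyp4a8 only as far as counting error goes. Cyp4a3 had no probe of its own name in either assay and was not analysed here, and whether reads of its RNA were captured by the probes named for the near-identical Cyp4a2 was not tested. The same holds for Cyp4a2l1.

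Culture medium without DMSO was compared with vehicle to see whether the solvent itself moved the genes. Cyp4a1 read 0.581, 0.992 and 1.02 CPM in the medium wells of batch 1, all below the 3 vehicle wells, and 0.159 to 2.18 CPM with a median of 1.58 in batch 2, where 2 of 6 wells were below vehicle and the others overlapped it. Cyp4a2 read 9.64, 9.88 and 11.4 CPM in batch 1 and 7.93 to 11.7 CPM with a median of 9.20 in batch 2. The log2 fold change (L2FC) of medium over vehicle was -0.53 (SE 0.58, 95% interval -1.66 to 0.61) for Cyp4a1 and -0.08 (SE 0.31, -0.68 to 0.52) for Cyp4a2. Neither of the 2 passed an adjusted p of 0.05 by edgeR's quasi-likelihood test, none had an unadjusted p below 0.05, and DESeq2 called 0 as well, beside 12.6% of all tested genes called. By ST assay Cyp4a1 read 1.00 to 2.95 CPM in the medium wells of batch 1, below the 10.1 to 15.3 CPM of vehicle, and 1.42 to 7.48 CPM in batch 2, where it overlapped the 4.93 to 10.9 CPM of vehicle. The L2FC of medium over vehicle by ST assay was -0.94 (SE 0.61, adjusted p = 0.286) for Cyp4a1 and -0.09 (SE 0.41) for Cyp4a2.

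WY14643, a synthetic PPARα agonist and peroxisome proliferator, gave the highest level of both genes at either concentration. With 200 µM, Cyp4a1 read 3142, 3160.5 and 3462 CPM in batch 1 and 2450.5, 2866 and 3000.2 CPM in batch 2. Cyp4a2 read 13135, 13904 and 13959.9 CPM in batch 1 and 9426, 9437 and 9927 CPM in batch 2. No treated well came near a vehicle well, and for both genes the wells of batch 1 were all above those of batch 2. The L2FC was 10.94 (SE 0.40, adjusted p = 3.93e-60) for Cyp4a1 and 10.19 (SE 0.36, adjusted p = 1.53e-61) for Cyp4a2, the latter a 1171-fold difference. The adjusted p here and below is that of edgeR's quasi-likelihood test with Benjamini-Hochberg adjustment over all genes tested, 51.4% of which passed with 200 µM WY14643. Reads of all CYP4A probes together rose from 0.00127% and 0.00125% of all WT reads with vehicle in batch 1 and 2 to 1.69% and 1.24%. The hepatocyte markers summed to 22725 to 27893 CPM in these wells, below every vehicle well, with 2 of 6 higher and 2 lower past the threshold.

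With 8 µM WY14643, Cyp4a1 read 2323, 2461 and 2569 CPM in batch 1 and 2057, 2099 and 2252 CPM in batch 2. Cyp4a2 read 12249, 12819.5 and 13527 CPM in batch 1 and 8317, 9087 and 9461 CPM in batch 2. For Cyp4a1 the wells of 8 µM lay below those of 200 µM in both batches, whereas for Cyp4a2 they overlapped in both. The L2FC against vehicle was 10.60 (SE 0.40) for Cyp4a1 and 10.15 (SE 0.36) for Cyp4a2, beside 56.2% of all genes called. The difference of 200 over 8 µM, tested directly, was 0.35 (SE 0.29, 95% interval -0.23 to 0.92) for Cyp4a1 and 0.05 (SE 0.29, -0.52 to 0.62) for Cyp4a2, and neither passed, while 5.74% of all genes did.

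**Figure D1:**
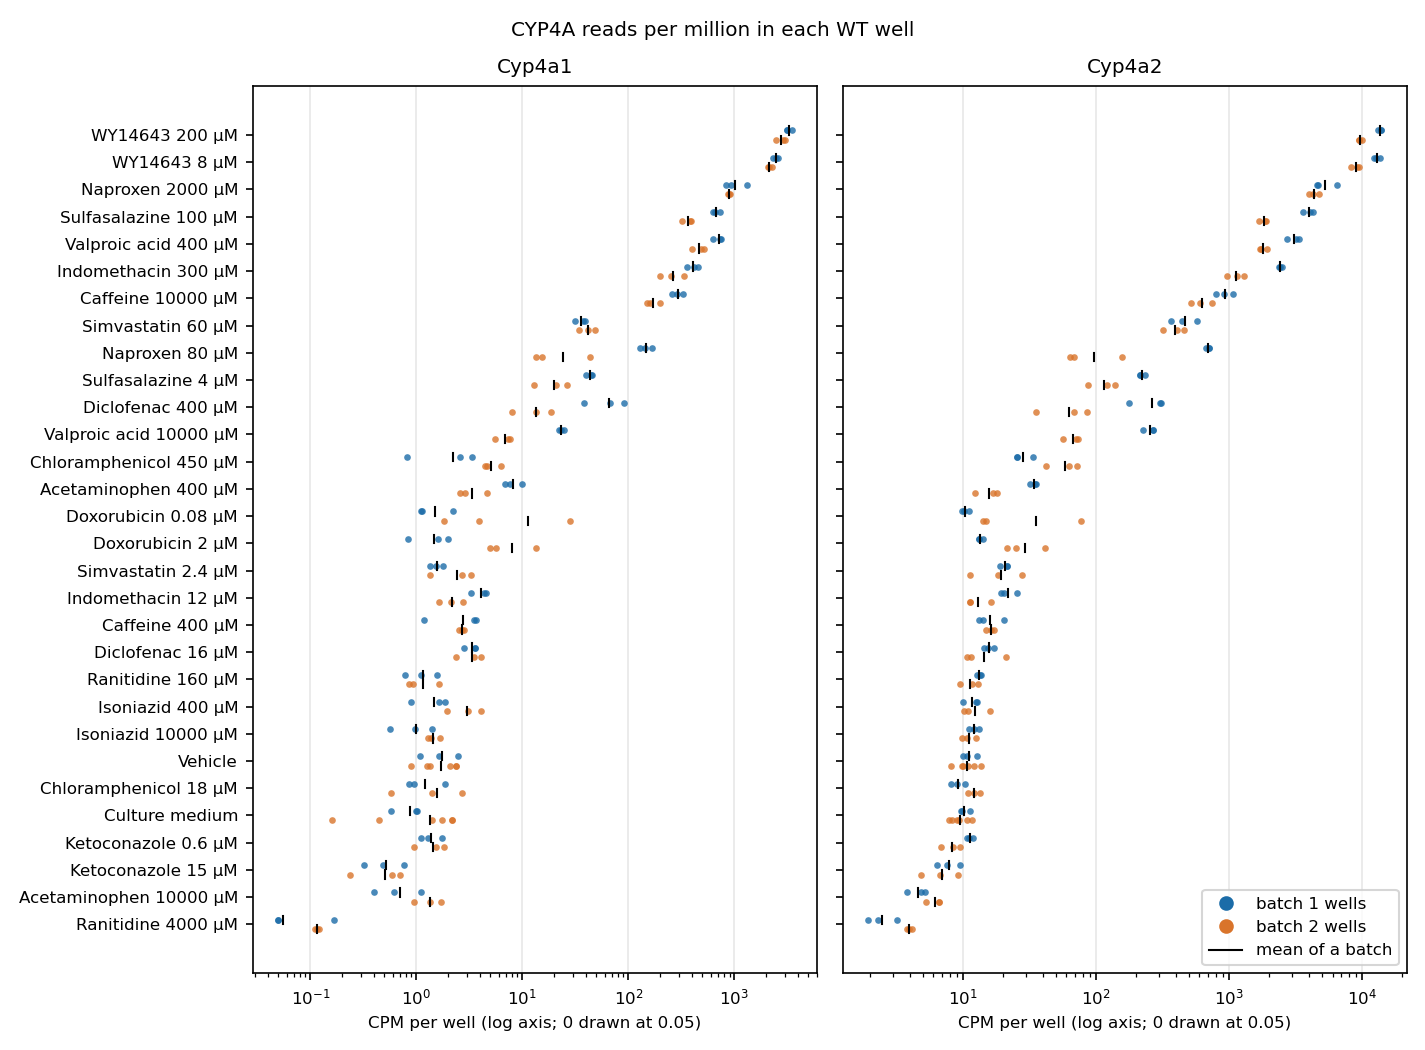
CPM per well of Cyp4a1 (left) and Cyp4a2 (right) by WT assay on a log axis, with 1 row per condition, a point per well coloured by batch and a short line at the mean of each batch. The WY14643 wells stand at the far right, from 2057 CPM up for Cyp4a1 and from 8317 CPM up for Cyp4a2, while vehicle wells lie between 0.890 and 2.5 CPM and between 8.12 and 13.6 CPM, and the 4000 µM ranitidine wells lie at 0 to 0.167 CPM and 1.95 to 4.12 CPM, below every vehicle well.

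Naproxen, a nonsteroidal anti-inflammatory drug, came next in the order of both genes at 2000 µM. Cyp4a1 read 841, 924 and 1306 CPM in batch 1 and 863, 898 and 907 CPM in batch 2. Cyp4a2 read 4601, 4666 and 6444 CPM in batch 1 and 4022, 4275 and 4728 CPM in batch 2. All 6 wells were far above vehicle and below every WY14643 well for both genes, with 1 well of batch 1 standing above the other two. The L2FC was 9.07 (SE 0.39, a 536-fold difference) for Cyp4a1 and 8.70 (SE 0.35, 416-fold) for Cyp4a2, with 53.8% of all genes called. The hepatocyte markers summed to 16430.3 to 17817 CPM here, below every vehicle well. Of the 6, 5 were lower past the threshold and Tat was higher by 1.32. The cholangiocyte markers summed to 9.69 to 16.2 CPM, with Epcam lower by 2.79 and Sox9 higher by 0.985 past the threshold.

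Valproic acid, a branched short-chain fatty acid used against epilepsy, raised both genes at 400 µM. Cyp4a1 read 635, 738 and 753 CPM in batch 1 and 402, 486 and 515 CPM in batch 2. Cyp4a2 read 2742, 3174 and 3376 CPM in batch 1 and 1724, 1748 and 1925 CPM in batch 2. No treated well came near the vehicle wells, and the batch 1 wells were all higher than those of batch 2. The L2FC was 8.36 (SE 0.38, 328-fold) for Cyp4a1 and 7.71 (SE 0.34, 210.1-fold) for Cyp4a2, in a comparison that called 29.1% of all genes.

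Sulfasalazine, an anti-inflammatory drug used for bowel disease, did so at 100 µM. Cyp4a1 read 631, 657 and 736 CPM in batch 1 and 322, 380.0 and 389 CPM in batch 2. Cyp4a2 read 3596, 4087 and 4266 CPM in batch 1 and 1672, 1880.0 and 1906 CPM in batch 2. The batches again did not overlap, batch 1 being the higher for both genes, and all wells were above vehicle. The L2FC was 8.26 (SE 0.38) for Cyp4a1 and 8.04 (SE 0.34) for Cyp4a2, with 40.9% of all genes called. For Cyp4a1 the wells of sulfasalazine overlapped those of 400 µM valproic acid in batch 1 and not in batch 2.

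Indomethacin, another nonsteroidal anti-inflammatory drug, was the next at 300 µM. Cyp4a1 read 359, 412 and 450.5 CPM in batch 1 and 199, 255 and 335 CPM in batch 2. Cyp4a2 read 2373, 2419 and 2495 CPM in batch 1 and 966, 1158 and 1288 CPM in batch 2. Each well lay above all vehicle wells, and for both genes all batch 1 wells were above those of batch 2. The L2FC was 7.67 (SE 0.38) for Cyp4a1 and 7.37 (SE 0.33) for Cyp4a2, with 54.7% of all genes called. Marker sums were below every vehicle well for hepatocytes (19306 to 23202 CPM, with 2 of 6 markers lower and 1, Tat, higher by 1.79 past the threshold), Kupffer cells (11.5 to 21.7 CPM), cholangiocytes (16.0 to 24.7 CPM) and endothelial cells (0.148 to 1.01 CPM).

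Caffeine, a methylxanthine, raised both genes at 10000 µM. Cyp4a1 read 255, 289 and 329 CPM in batch 1 and 149, 161 and 199 CPM in batch 2. Cyp4a2 read 793, 924 and 1072 CPM in batch 1 and 521, 609 and 740.3 CPM in batch 2. The treated wells were above vehicle without exception. The L2FC was 7.08 (SE 0.38, 136-fold) for Cyp4a1 and 6.17 (SE 0.32, 72.0-fold) for Cyp4a2, where 66.2% of all genes were called. The summed CPM of the 6 hepatocyte markers lay between 14857 and 20618 in these wells, below the 28159.9 of the lowest vehicle well, though Tat (3.23) and Cps1 (2.18) were higher past the threshold and only 3 were lower, and that of 5 Kupffer cell markers between 5.64 and 14.2 CPM.

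A second tier of treatments raised both genes by 6.45-fold to 47.1-fold. Naproxen at 80 µM gave 128, 143 and 166 CPM of Cyp4a1 in batch 1 against 13.4, 15.2 and 43.4 CPM in batch 2. Cyp4a2 read 669.5, 709 and 713 CPM in batch 1 and 63.7, 68.9 and 157 CPM in batch 2. In either batch the wells were above vehicle, and batch 1 stood far above batch 2. The L2FC over both batches was 5.56 (SE 0.38) for Cyp4a1 and 5.08 (SE 0.31) for Cyp4a2, and 16.0% of all genes were called.

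Simvastatin, which inhibits the rate-limiting step of cholesterol synthesis, gave at 60 µM 31.3, 37.0 and 38.8 CPM of Cyp4a1 in batch 1 and 34.4, 41.4 and 48.2 CPM in batch 2. Cyp4a2 read 369.6, 442 and 580.2 CPM in batch 1 and 317, 409 and 459 CPM in batch 2. The batches overlapped, and no well reached down to vehicle. The L2FC was 4.52 (SE 0.38) for Cyp4a1 and 5.30 (SE 0.31) for Cyp4a2, with 23.9% of all genes called. Sulfasalazine at 4 µM gave 39.8, 44.7 and 45.4 CPM of Cyp4a1 in batch 1 and 12.9, 21.0 and 26.5 CPM in batch 2, with 214, 216 and 233 CPM of Cyp4a2 in batch 1 and 87.6, 121 and 139.7 CPM in batch 2. All of these were above vehicle and all batch 1 wells were above batch 2. The L2FC was 4.10 (SE 0.39) and 3.85 (SE 0.30), beside 17.4% of all genes called.

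Diclofenac, also a nonsteroidal anti-inflammatory drug, gave at 400 µM 38.6, 67.3 and 90.3 CPM of Cyp4a1 in batch 1 and 7.98, 13.5 and 18.7 CPM in batch 2. Cyp4a2 read 179, 304 and 307 CPM in batch 1 and 35.8, 68.4 and 85.3 CPM in batch 2. Both genes were above vehicle in all 6 wells, with no overlap of the batches. The L2FC was 4.18 (SE 0.39) and 3.56 (SE 0.30), with 71.7% of all genes called, and the hepatocyte markers summed to 5711 to 7718 CPM, the lowest of any treatment, and the cholangiocyte markers to 4.36 to 9.52 CPM. Valproic acid at 10000 µM gave 22.0, 22.9 and 24.5 CPM of Cyp4a1 in batch 1 and 5.48, 7.27 and 7.63 CPM in batch 2, with 226, 267 and 270.4 CPM and 56.4, 71.5 and 73.0 CPM of Cyp4a2. These wells too were all above vehicle. The L2FC was 2.69 (SE 0.42) for Cyp4a1 and 3.43 (SE 0.30) for Cyp4a2, with 66.7% of all genes called and 13997 to 19088 CPM of hepatocyte, 12.8 to 19.7 CPM of Kupffer cell and 0 to 0.267 CPM of endothelial markers, all below vehicle, and 49.6 to 74.2 CPM of cholangiocyte markers, above it. Among the Kupffer cell markers with 10000 µM valproic acid, Cd68 went the other way (L2FC 0.814). In lysate of whole wells, fewer hepatocytes and less of an RNA per hepatocyte cannot be told apart. The paper measured viability by ATP in a parallel set of wells and found it lowest at the high concentrations of valproic acid and indomethacin.

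At the edge of detection the calls rested on few wells. Doxorubicin, an anthracycline that damages DNA, gave at 0.08 µM 1.12, 1.14 and 2.22 CPM of Cyp4a1 in batch 1, within vehicle, and 1.82, 3.87 and 28.3 CPM in batch 2. Cyp4a2 read 9.82, 10.3 and 11.1 CPM in batch 1 and 14.3, 15.0 and 77.9 CPM in batch 2. A single well of batch 2, replicate 2, stood far above the others for both genes, and by ST assay it read 174 CPM of Cyp4a1 and 54.0 CPM of Cyp4a2 beside 16 and 29 CPM and 10.4 and 17.3 CPM in the other two. The L2FC was 1.86 (SE 0.46, adjusted p = 0.0123) for Cyp4a1 and 1.04 (SE 0.31, adjusted p = 0.0713) for Cyp4a2, with 1.32% of all genes called. Without the second replicates of all conditions that of Cyp4a1 was 0.13, and in batch 1 alone it was -0.20.

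At 2 µM doxorubicin, Cyp4a1 read 0.836, 1.6 and 1.98 CPM in batch 1 and 4.98, 5.70 and 13.5 CPM in batch 2. Cyp4a2 read 13.2, 13.2 and 14.2 CPM in batch 1 and 21.6, 25.1 and 41.2 CPM in batch 2. In batch 2 the wells were above vehicle for both genes, and in batch 1 those of Cyp4a1 overlapped vehicle while those of Cyp4a2 lay just above it. The L2FC was 1.44 (SE 0.49, adjusted p = 0.0238) and 0.94 (SE 0.32, adjusted p = 0.0231), with 19.4% of all genes called, and in batch 1 alone that of Cyp4a1 was -0.079. Neither call held when the wells of a batch were added, or without replicate 1 (0.84 and 0.66) or 3 (1.72 and 1.00). The markers of hepatocytes (20907 to 24993 CPM), Kupffer cells (4.00 to 7.86 CPM) and endothelial cells (0 to 0.476 CPM) were below every vehicle well.

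Chloramphenicol, an inhibitor of bacterial and mitochondrial protein synthesis, was the only treatment with a call for Cyp4a2 and none for Cyp4a1. At 450 µM, Cyp4a2 read 25.4, 25.5 and 34.0 CPM in batch 1 and 42.1, 62.5 and 72.1 CPM in batch 2, all above vehicle. Cyp4a1 read 0.811, 2.58 and 3.32 CPM in batch 1 and 4.41, 4.62 and 6.23 CPM in batch 2, so that 2 of 3 wells in batch 1 and all 3 in batch 2 were above the vehicle wells of their batch. The L2FC was 1.87 (SE 0.30, adjusted p = 1.32e-07) for Cyp4a2 and 1.00 (SE 0.51, adjusted p = 0.119) for Cyp4a1, where 33.3% of all genes were called, with 16635 to 25954 CPM of hepatocyte and 18.2 to 32.1 CPM of cholangiocyte markers, both below vehicle. Among the hepatocyte markers, Tat (0.345) and Cps1 (0.116) had an L2FC above 0 in this treatment. The log ratio of Cyp4a1 over Cyp4a2 did not pass its own test here with a pseudocount of 0.5, so that an unequal response is not shown by it.

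Acetaminophen, an analgesic, left both genes short of the threshold at 400 µM although most wells were high. Cyp4a1 read 6.87, 7.65 and 9.96 CPM in batch 1 and 2.59, 2.86 and 4.64 CPM in batch 2, all above the vehicle wells of their batch. Cyp4a2 read 32.0, 34.7 and 35.5 CPM in batch 1, above vehicle, and 12.4, 16.7 and 18.0 CPM in batch 2, where the lowest well overlapped it. The L2FC was 1.56 (SE 0.49, adjusted p = 0.0816) and 1.04 (SE 0.32, adjusted p = 0.0723), while 1.38% of all genes were called. DESeq2 called both genes here, and by ST assay Cyp4a1 passed with an L2FC of 2.11 (SE 0.46, adjusted p = 0.00127) beside 5.06% of ST genes.

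Ranitidine, a blocker of the histamine H2 receptor, was the only treatment that lowered a CYP4A gene past the threshold, and at 4000 µM it lowered both. Cyp4a1 had no read in 2 of the 6 wells and 1 read in each of the other 4, that is 0, 0 and 0.167 CPM in batch 1 and 0.111, 0.115 and 0.120 CPM in batch 2. Cyp4a2 read 1.95, 2.31 and 3.18 CPM in batch 1 and 3.78, 3.95 and 4.12 CPM in batch 2. Every well was below every vehicle well for both genes. Over all wells Cyp4a1 had 4 reads against 100 with vehicle, a CPM ratio of 0.0535 with a 95% counting interval of 0.0143 to 0.141, and its fitted L2FC of -3.95 (SE 1.08, adjusted p = 0.000742) depends on how so few reads are handled. Cyp4a2 fell by 1.69 on the log2 scale (SE 0.39, 3.22-fold lower, adjusted p = 8.37e-05), beside 66.2% of all genes called, and was not called with the wells of a batch added (-1.60). Hepatocyte markers summed to 10406 to 15464 CPM in these wells, below every vehicle well, and 6 of 6 of them were lower past the threshold, as were 3 of 4 tested Kupffer cell markers (15.4 to 25.3 CPM together), while the fourth, Cd68, a macrophage glycoprotein, was higher by 1.36 on the log2 scale.

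Ketoconazole, an antifungal that inhibits many P450 enzymes, gave at 15 µM 0.320, 0.484 and 0.765 CPM of Cyp4a1 in batch 1 and 0.235, 0.593 and 0.695 CPM in batch 2. These wells lay below all vehicle wells, with 2 to 6 reads each. The L2FC was -1.69 (SE 0.76, adjusted p = 0.0523) for Cyp4a1 and -0.57 (SE 0.35, adjusted p = 0.168) for Cyp4a2, while 51.3% of all genes passed and the hepatocyte markers summed to 15827 to 20647 CPM. Among these markers Tat went the other way (L2FC 0.519). By ST assay the batches of this treatment went apart, with Cyp4a1 at 0.575 to 1.41 CPM in batch 1, below vehicle, and 6.96 to 10.6 CPM in batch 2, overlapping it. Cyp4a2 read 2.81 to 8.63 CPM in batch 1, overlapping vehicle, and 22.8 to 25.1 CPM in batch 2, above it, with an L2FC of 0.21 (SE 0.42) by ST assay. Acetaminophen at 10000 µM gave 3.84, 4.83 and 5.22 CPM of Cyp4a2 in batch 1 and 5.29, 6.63 and 6.64 CPM in batch 2, all below vehicle. Its L2FC of -0.60 (SE 0.37, adjusted p = 0.124) did not pass with TMM scaling, in the treatment with the most genes called (78.9%). Scaled by library totals alone it was -1.01 and passed, as did that of Cyp4a1 with ketoconazole (-1.74).

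In the remaining treatments, among them both concentrations of isoniazid, a drug against tuberculosis, no call was made. Isoniazid at 10000 µM gave an L2FC of -0.55 for Cyp4a1 and -0.02 for Cyp4a2, although 34.7% of all genes were called. Indomethacin at 12 µM gave 0.86 and 0.62 with 5.87% of all genes called, and simvastatin at 2.4 µM gave 0.16 and 0.77 with 2.4% called. At 400 µM caffeine all 6 wells of Cyp4a2, from 13.3 to 20.5 CPM, were above the vehicle wells of their batch, with an L2FC of 0.50 that did not pass in a comparison calling 0.118% of genes. Diclofenac at 16 µM, isoniazid at 400 µM, ketoconazole at 0.6 µM, chloramphenicol at 18 µM and ranitidine at 160 µM gave values between -0.61 and 0.90, with 0.137%, 0.0196%, 1.62%, 0.0883% and 0.0589% of all genes called.

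Across the 28 treatments, each gene was called in 15, of which 14 were higher and 1 lower than vehicle. Both genes were called in 14 treatments, always in the same direction, and neither in 12. Of the 56 pairs of gene and treatment, 30 passed, 28 of them higher, against 30.2% and 15.2% of all genes over the same 28 comparisons, and 35 had an unadjusted p below 0.05. By position alone, all wells of both batches were above vehicle in 13 treatments for Cyp4a1 and in 15 for Cyp4a2, and all were below in 2 for each, where 7.46% of all genes over the same comparisons were above and 10.7% below. By ST assay the wells were all above in 14 treatments for Cyp4a1 and 13 for Cyp4a2, and all below in 1 and 0, where 9.66% and 14.1% of the ST genes over the same comparisons were above and below. Chemicals with many changed genes were not always those with a CYP4A response, as the 78.9% with acetaminophen and the 29.1% with 400 µM valproic acid show.

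The low and the high concentration of each chemical were compared directly, without the vehicle wells. Cyp4a1 passed in 9 of 14 chemicals, 6 higher and 3 lower at the high concentration, and Cyp4a2 in 10, 7 higher and 3 lower, beside 40.8% of all genes over the 14 comparisons. The high concentration gave more of both genes with indomethacin (6.81 and 6.75, 43.0% of all genes called), caffeine (6.46 and 5.67, 61.5% called), simvastatin (4.37 and 4.53, 24.0% called), sulfasalazine (4.16 and 4.20, 12.9% called), naproxen (3.51 and 3.62, 47.4% called) and diclofenac (3.29 and 3.16, 70.0% called), the values being the L2FC of Cyp4a1 and Cyp4a2 in turn. With chloramphenicol Cyp4a2 was 1.88 (SE 0.35) higher and Cyp4a1, at 1.29 (SE 0.60, 0.12 to 2.46), did not pass, with 24.3% called, and the call of Cyp4a2 was lost with the wells of a batch added (1.85).

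Valproic acid went the other way. Cyp4a1 fell by 5.67 (SE 0.37) and Cyp4a2 by 4.29 (SE 0.33) on the log2 scale from 400 to 10000 µM, 50.8-fold and 19.5-fold lower, in a comparison that called 65.3% of all genes. In both batches the wells of the high concentration lay below those of the low one and still above vehicle. Acetaminophen gave -1.81 (SE 0.59) and -1.65 (SE 0.38) with 76.3% called, and ranitidine -3.34 (SE 1.23) and -1.80 (SE 0.41) with 57.5% called. For Cyp4a1 neither was called without replicate 3 (-1.64 and -3.61) or with the wells of a batch added (-1.84 and -3.48). Doxorubicin gave -0.42 (95% interval -1.28 to 0.43) and -0.10 (-0.75 to 0.55), isoniazid -0.92 and -0.10, and ketoconazole -1.45 and -0.39, none of which passed, while 10.3%, 31.4% and 41.7% of all genes did.

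**Figure D2:**
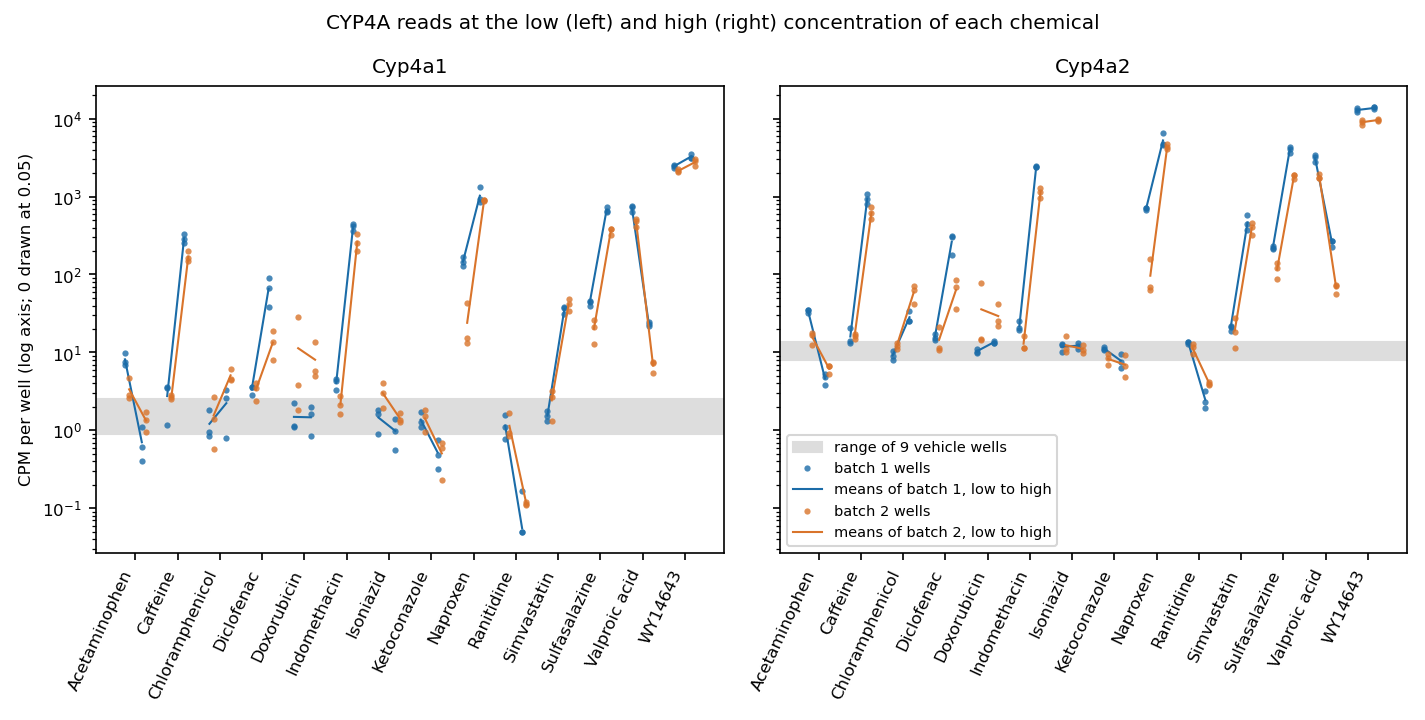
CPM per well of Cyp4a1 and Cyp4a2 by WT assay on a log axis at the low (left) and the high (right) concentration of each chemical, with lines that join the means of a batch and a grey band over the 9 vehicle wells. The lines climb steeply for indomethacin, caffeine, simvastatin, sulfasalazine, naproxen and diclofenac, are nearly level for WY14643, and descend for valproic acid, acetaminophen and ranitidine.

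Several chemicals were given at the same concentration, so that valproic acid, itself a fatty acid, could be set against other small molecules at a matched dose and time. Acetaminophen stood on another culture plate than valproic acid in both batches, so that a plate effect cannot be told apart from their difference. All 14 differences, over 7 pairs of treatments and 2 genes, passed with p-values adjusted over all genes. At 400 µM valproic acid gave more of both genes than acetaminophen (L2FC of 6.79 for Cyp4a1 and 6.68 for Cyp4a2, 21.6% of all genes called), caffeine (7.73 and 7.22, 23.3% called), isoniazid (7.99 and 7.64, 26.9% called) and diclofenac (4.17 and 4.16, 72.2% called). At 10000 µM it gave more than acetaminophen (2.93 and 4.03, 77.0% called) and isoniazid (3.24 and 3.45, 62.8% called) and less than caffeine, by 4.40 (SE 0.35) for Cyp4a1 and 2.74 (SE 0.31) for Cyp4a2 on the log2 scale, with 68.5% called.

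The batches differed in the size of some responses. The difference of the L2FC between the batches was tested as an interaction in 58 cases, 2 genes in 28 treatments and medium, and 10 passed, beside 2.36% of all genes. The widest was naproxen at 80 µM, where Cyp4a2 rose by 6.15 in batch 1 and 3.18 in batch 2, a difference of -2.97 (SE 0.34, adjusted p = 5e-11), and Cyp4a1 by 6.62 and 3.83, a difference of -2.79 (SE 0.58), while 0.451% of all genes passed. Diclofenac at 400 µM gave 5.17 and 2.79 for Cyp4a1 and 4.45 and 2.39 for Cyp4a2, with 10.1% of all genes passing. Valproic acid at 10000 µM gave 3.58 and 1.67 for Cyp4a1 and 4.31 and 2.32 for Cyp4a2, with 8.63% passing. In all of these batch 1 had the larger rise. With a replicate left out, the difference for Cyp4a1 with valproic acid kept its direction but was not called without replicate 1, 2, 3 or 4 (-2.16 to -1.55), nor was that for Cyp4a1 with naproxen without replicate 1 (-2.39).

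For Cyp4a2 the rise was also larger in batch 1 with 300 µM indomethacin (8.00 against 6.80, 2.5% of all genes passing) and with 100 µM sulfasalazine (8.67 against 7.48, 2.55% passing). The first was not called without replicate 1, 3, 5 or 6 (-1.43 to -1.06), nor the second without replicate 2, 3, 5 or 6 (-1.41 to -1.12). The direction was opposite with 0.08 µM doxorubicin, with -0.21 in batch 1 and 2.66 in batch 2 for Cyp4a1 and -0.06 and 1.64 for Cyp4a2 (2.91% passing), where the well that stood apart lies in batch 2. Without the second replicates these differences were 0.55 and 0.43. Batch 1 and 2 differ in rat, library construction and sequencing run together, so that these cannot be told apart.

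**Figure D3:**
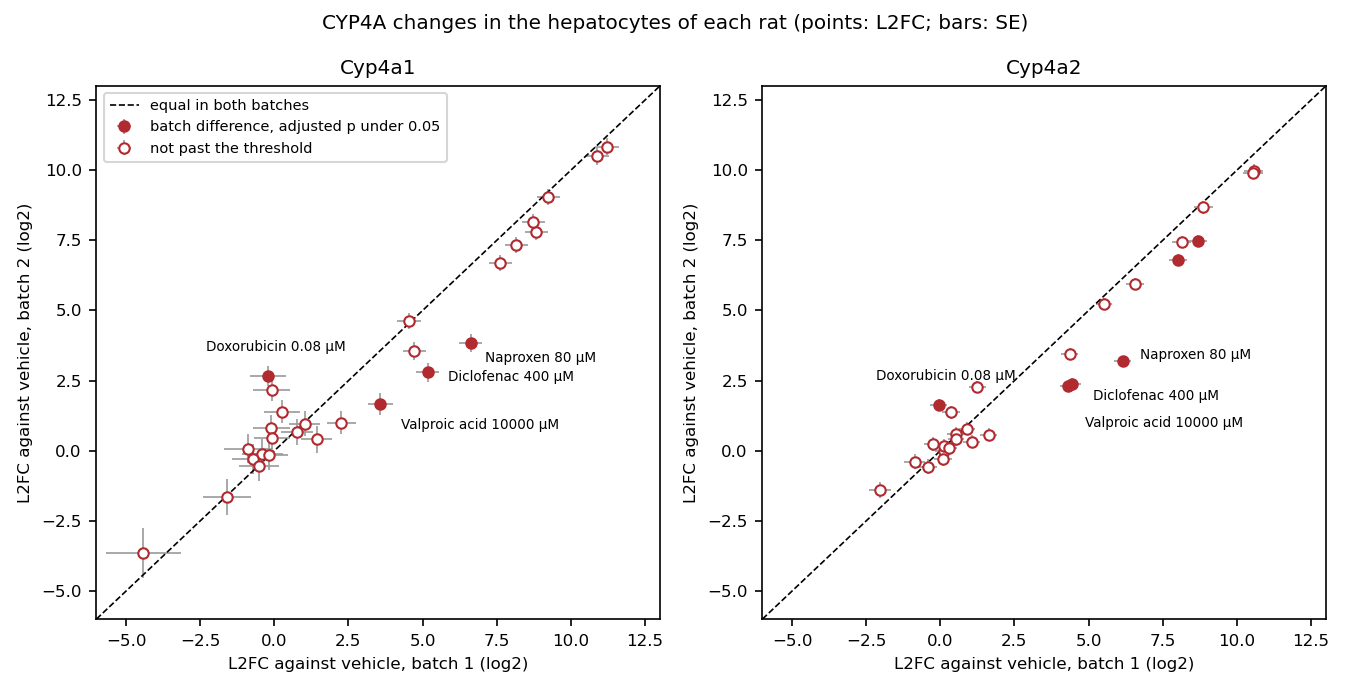
L2FC against vehicle in batch 1 (horizontal) and batch 2 (vertical) for Cyp4a1 and Cyp4a2, with bars of 1 SE, filled points where the difference of the batches passed and a dashed line of equality. Most points lie near the line, while naproxen at 80 µM, diclofenac at 400 µM and valproic acid at 10000 µM lie below it, with smaller rises in batch 2, and doxorubicin at 0.08 µM lies above it.

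The ST assay read the same lysates with the same probe for Cyp4a1 and the same 3 probes for Cyp4a2. With vehicle, Cyp4a1 read 10.1, 11.8 and 15.3 CPM in batch 1 and 4.93 to 10.9 CPM with a median of 7.11 in batch 2, and with 200 µM WY14643 it read 21536, 22193 and 23662 CPM in batch 1 and 14755, 14796 and 16388 CPM in batch 2. Cyp4a2 read 8.42, 13.8 and 21.1 CPM with vehicle in batch 1 and 6.34 to 18.4 CPM with a median of 12.5 in batch 2, and 7016, 9025 and 9283 CPM and 5039, 5417 and 5968 CPM with 200 µM WY14643. Treated wells were far above vehicle in this assay too. The ST values gave 31 calls of 56, 16 for Cyp4a1 and 15 for Cyp4a2, of which 30 were also calls by WT assay, all with the same sign, beside 34.8% of the 1760 ST genes over the same comparisons. With the wells of a batch added, 24 of the ST calls were left, those lost being both genes with 2 µM doxorubicin and 4000 µM ranitidine, Cyp4a1 with 0.08 µM doxorubicin and 400 µM acetaminophen, and Cyp4a2 with 450 µM chloramphenicol. The 1 added call was Cyp4a1 with 400 µM acetaminophen. With 200 µM WY14643 the L2FC by ST assay was 11.44 (SE 0.46) for Cyp4a1 and 9.46 (SE 0.37) for Cyp4a2.

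The probes did not keep the same proportions in the assays. In batch 1 the reads of the Cyp4a1 probe over those of the first probe of Cyp4a2 were 0.166 with vehicle and 0.277 with 200 µM WY14643 by WT assay, but 1.12 and 4.88 by ST assay, so that in batch 1 which of these 2 probes had more reads depended on the assay. In batch 2 the ratio with vehicle was below 1 in both assays, 0.175 by WT and 0.778 by ST assay. Among the reads of Cyp4a2, the second probe took 9.35% with vehicle and 14.0% with 200 µM WY14643 by WT assay in batch 1, and 22.2% and 44.2% by ST assay. Tested one by one by WT assay, the first probe gave an L2FC of 10.10 (SE 0.36) and the second 10.86 (SE 0.37) with 200 µM WY14643, and 7.59 and 8.60 with 400 µM valproic acid. The third probe had 2 reads over the 9 vehicle wells and 2049 over the 6 wells of 200 µM WY14643, a CPM ratio of 1324 with a 95% counting interval of 366 to 10937. With 2000 µM naproxen it had 497 reads, a ratio of 361 (99.4 to 2988), and with 4000 µM ranitidine none. Which of the near-identical transcripts each probe detected was not tested.

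**Figure D4:**
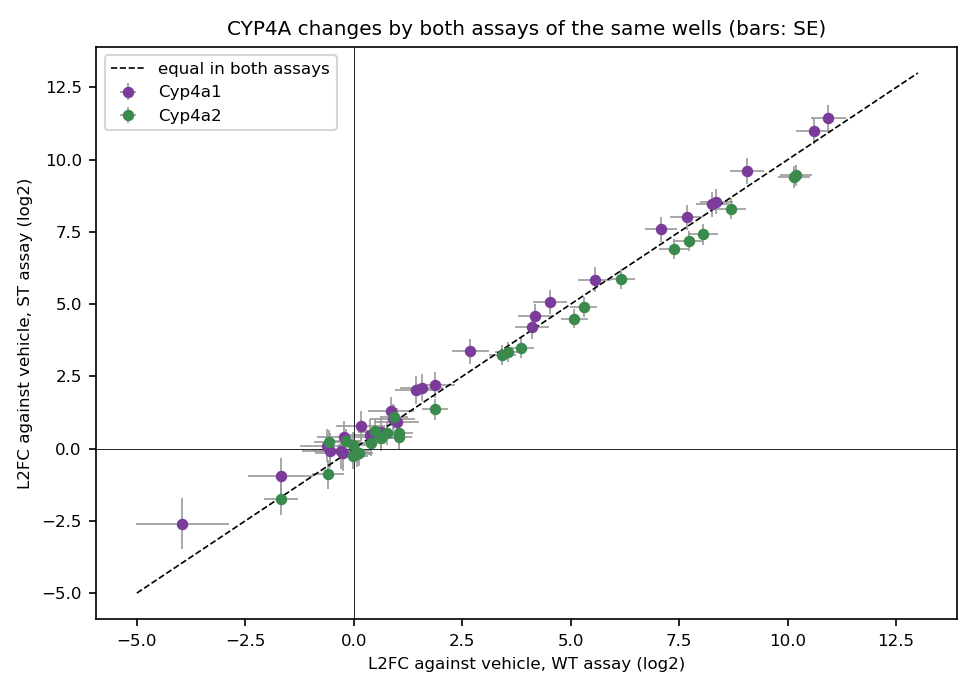
L2FC against vehicle by WT assay (horizontal) and ST assay (vertical) for Cyp4a1 and Cyp4a2 in each treatment and in medium, with bars of 1 SE and a dashed line of equality. The points follow the line from the ranitidine values below 0 to WY14643 above 9, those of Cyp4a1 mostly a little above the line and those of Cyp4a2 a little below it.

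Whether the 2 genes moved unequally was tested within wells, where the scaling of a library cancels. The log2 ratio of Cyp4a1 over Cyp4a2 reads, with a pseudocount of 0.5, differed from vehicle in 1 of 29 conditions, 4000 µM ranitidine, by -1.79 (-1.70 in batch 1 and -1.87 in batch 2; exact permutation test, two-sided, p = 0.000595, the smallest that the 1680 permutations can give, adjusted p = 0.0173). By the same permutation test, 10000 µM caffeine (0.91), 200 µM WY14643 (0.75), 450 µM chloramphenicol (-0.97), 15 µM ketoconazole (-1.04) and 60 µM simvastatin (-0.78) had an adjusted p of 0.0547. Each had the same sign in both batches and was not called. With a pseudocount of 5 the difference with ranitidine was -0.03 and not called. Simvastatin at 60 µM (-1.17), chloramphenicol at 450 µM (-1.05) and valproic acid at 10000 µM (-1.02) were then called, but the larger pseudocount lifts the ratio in vehicle wells, where Cyp4a1 has few reads, and so lowers the difference of treatments with many reads by construction. With 0.5 the 3 were -0.78, -0.97 and -0.69 and not called. The unequal change with ranitidine thus rests on wells with 0 or 1 read of Cyp4a1.

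Genes that act after CYP4A in fatty acid breakdown rose in the 6 treatments with the largest CYP4A change. Of 12 tested genes of peroxisomal oxidation, 12 were higher with 200 µM WY14643 (median L2FC 4.13, against -0.0061 over all tested genes), 8 µM WY14643 (4.15), 2000 µM naproxen (3.39), 300 µM indomethacin (2.41), 100 µM sulfasalazine (2.39), 400 µM valproic acid (2.05) and 80 µM naproxen (1.12). Of all tested genes, 26.0%, 28%, 27.6%, 27.1%, 21.3%, 15.1% and 8.64% were higher in these comparisons in turn. Scaled by library totals alone, the counts of this list were the same, while the share of all genes higher was 14.9% and 15.5% with 200 and 8 µM WY14643, 17.9% with indomethacin, 13.9% with sulfasalazine and 5.63% with 80 µM naproxen. With 60 µM simvastatin 11 were higher, beside 11.4% of all genes, and with 10000 µM caffeine 10, beside 34.6%. With 400 µM diclofenac, which raised both CYP4A genes, 4 were higher and 4 lower (median 0.17), beside 36.0% and 35.8% of all genes, and the lower ones were Scp2 (-1.43), Acaa1a (-1.15), Crot (-0.80) and Eci2 (-0.71). Ehhadh, the bifunctional enzyme of peroxisomal beta oxidation, read 0.751 to 3.02 CPM with vehicle, and rose by 10.25 (SE 0.28) with 200 µM WY14643, 8.28 with 2000 µM naproxen, 7.90 with sulfasalazine, 7.08 with 400 µM valproic acid and 5.78 with indomethacin. Acot4, a peroxisomal thioesterase that releases dicarboxylic acids, rose by 5.91 with 200 µM WY14643. Pex11a, which acts in peroxisome division, rose by 4.67 with 2000 µM naproxen and 3.56 with indomethacin, and Ech1, an enoyl isomerase, by 3.53 with sulfasalazine and 3.49 with 400 µM valproic acid. With 4000 µM ranitidine 8 of the 12 were lower and 2 higher (median -0.64), beside 33.9% and 32.3% of all genes.

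PPARα targets outside the peroxisome rose in the same treatments. Of 21 tested, Acot1, Fabp3 and Pdk4 averaged under 10 reads with vehicle and were tested only because other conditions hold more, so the counts here are over the other 18. All 18 were higher with either concentration of WY14643 (median L2FC 3.09 at 200 µM and 3.10 at 8 µM), with 2000 µM naproxen (2.19) and with 100 µM sulfasalazine (1.82), beside 26.0%, 28%, 27.6% and 21.3% of all genes. With 400 µM valproic acid 17 were higher (1.61), beside 15.1% of all genes, and with 300 µM indomethacin 16 were higher and 1 lower, beside 27.1% and 27.6%. Fabp1, the fatty acid binding protein of liver, rose by 7.75 (SE 0.31) with 200 µM WY14643 and 5.74 with 2000 µM naproxen, and Cpt1b, a carnitine palmitoyltransferase, by 4.83 with 400 µM valproic acid and 4.46 with sulfasalazine. Acot1, a cytosolic acyl-CoA thioesterase, had 2 reads over the 9 vehicle wells and 684 to 915 CPM with 200 µM WY14643, a CPM ratio of 22452 with a 95% counting interval of 6215 to 185398. Pdk4, which holds back glucose oxidation, had no more than 2 reads in a vehicle well and a ratio of 437 (237 to 912), and Fabp3, a fatty acid binding protein best known from muscle, had 30 reads over the vehicle wells and a ratio of 42.8 (29.8 to 63.8). With 10000 µM caffeine 10 of the 18 were higher and 6 lower, beside 34.6% and 31.6% of all genes, with 400 µM diclofenac 7 and 6, near the 36.0% and 35.8% of all genes, and with 4000 µM ranitidine 5 and 11, beside 32.3% and 33.9%.

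The partners of CYP4A were also called, with lower medians. The list holds redox partners and later enzymes of omega oxidation, and also Cyp2e1, which is neither. Of its 8 tested genes, 8 were higher with 200 µM WY14643 (median 2.19) and 7 with 8 µM WY14643, sulfasalazine and indomethacin. With 2000 µM naproxen 6 were higher and with 400 µM valproic acid 5. Of all genes, 26.0%, 28%, 21.3%, 27.1%, 27.6% and 15.1% were higher in turn. With library totals alone the counts of the list were 7, 5, 4, 6, 6 and 5. Acsl1, which activates fatty acids to their CoA esters, rose by 5.62 (SE 0.18) with 200 µM WY14643, and Por, the reductase that passes electrons to P450 enzymes, by 2.48 with 8 µM WY14643 and 2.10 with indomethacin. Cyp2e1, a P450 that oxidizes fatty acids next to their last carbon, rose by 3.45 and Aldh1a1, an aldehyde dehydrogenase, by 3.02 with 200 µM WY14643. Cyp2e1 did not follow the CYP4A order. Its L2FC was 0.726 with 8 µM WY14643, 2.94 with 2000 µM naproxen and 2.53 with 300 µM indomethacin. It was 0.344 with 100 µM sulfasalazine, 0.674 with 400 µM valproic acid and 6.83 with 10000 µM caffeine. Of 10 tested receptors and partners, 6 were higher with 200 µM WY14643 (median 0.53), against the same 26.0% of all genes (4 higher and 1 lower with library totals), among them Ppara by 1.08 (SE 0.20) and Rxra by 0.90, and with 400 µM valproic acid Ppara rose by 1.23.

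Other CYP4 enzymes, which hydroxylate leukotrienes, very long fatty acids and other lipids, were called in both directions. Of 6 tested, 4 were higher and 1 lower with 200 µM WY14643 (median 0.53), beside 26.0% and 25.4% of all genes (2 and 1 with library totals), with Cyp4f39 at 0.89, Cyp4f37 at 0.81 and Cyp4v3 at 0.66. With 8 µM WY14643 Cyp4f37 rose by 1.62, and with 2000 µM naproxen 1 was higher and 2 lower, beside 27.6% and 26.2% of all genes, with Cyp4f4 at -0.79. All 6 were lower with 400 µM diclofenac (median -2.23), in wells where both CYP4A genes rose, and 5 with 4000 µM ranitidine (median -1.17), while 35.8% and 33.9% of all genes were lower. The lists of these genes were drawn up with earlier results of these data known, and no test over a list was made.

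Across the 60 means of condition and batch, taken as log2 CPM centred on the batch, the gene most like Cyp4a1 was Cyp4a2 (Pearson r = 0.992, a description over values that share wells, libraries and vehicle). The next for Cyp4a1 were Ech1 (0.959), Eci1 (0.954), Pex11a (0.95) and Abcd3 (0.946), and those for Cyp4a2 were Ech1 (0.967), Eci1 (0.958), Acaa2 (0.952) and Pex11a (0.95). Eci1 and Acaa2 are mitochondrial enzymes of fatty acid oxidation, and Abcd3 is a peroxisomal transporter of fatty acids.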

How the data were processed

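Hepatocyte lysate was hybridized with detector oligos for 1 h (ST assay) or overnight (WT assay), ligated, amplified and sequenced. The authors aligned reads to the rat build rn6 with STAR 2.5.3a and deposited whole-number counts per probe (22253 WT and 2654 ST probes), without normalization. Here probes that carry the same symbol were summed, and genes averaging 10 or more reads per well of an assay were tested with edgeR 4.0.16 (TMM, quasi-likelihood test, batch as a term, all wells in 1 fit) in R 4.3.3. A call is a Benjamini-Hochberg adjusted p below 0.05 over all genes of a contrast. CPM scales the counts of a well to its total over all probes. Intervals of count ratios are exact at 95% and cover counting error only. The scripts were tested on simulated data. DESeq2 1.42.0, other scalings and left-out wells were tried as alternatives. Members and gene lists were chosen with earlier results of these data known. Besides the CYP4A genes, the named genes are up to 3 per list with the largest L2FC among calls of the same sign in both batches, in the 6 treatments with the largest CYP4A change, plus the 5 genes most like each member. Scp2, Acaa1a, Crot, Eci2 and Fabp3, and Cd68, Tat, Cps1 and Cyp2e1 in some treatments, fall outside this rule and were chosen after their values were seen. No 2 wells of a group held identical values.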

Additional observations from a re-analysis of the deposited data

Results flagged for a closer look

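No well of a vehicle or medium group of batch 2 stood apart from the others by Dixon's criterion, which chance alone meets in about 1 in 20 groups. The groups of 3 wells are too small for it.

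The remaining results listed here are effects that differed between the 2 batches by the interaction test, given as batch 2 minus batch 1 on the L2FC scale. Naproxen at 80 µM gave -2.97 for Cyp4a2 and -2.79 for Cyp4a1. Diclofenac at 400 µM gave -2.38 for Cyp4a1 and -2.06 for Cyp4a2. Valproic acid at 10000 µM gave -1.99 for Cyp4a2 and -1.91 for Cyp4a1. For Cyp4a2 alone, indomethacin at 300 µM gave -1.20 and sulfasalazine at 100 µM gave -1.19. Doxorubicin at 0.08 µM gave 2.87 for Cyp4a1 and 1.70 for Cyp4a2, and these were 0.55 and 0.43 without the second replicates. In 8 of the 10 cases the rise was larger in batch 1.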

How the results depend on the processing

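The 30 calls against vehicle by WT assay came to 26 to 39 over the alternatives, all within 1.5 times. In batch 2 alone, with vehicle wells of the same plate as reference, they were 31. They were 34 by DESeq2, 30 with RLE size factors, 33 with library totals alone, 30 without a filter, 26 with the wells of a batch added, 39 with the wells of a treatment and vehicle fitted by themselves, 34 against medium, 34 and 32 in batch 1 and 2 alone, and 28 to 30 with a replicate left out. Against vehicle, RLE size factors moved the median of all genes by no more than 0.024 (log2) and library totals by up to 0.407, and over all 50 comparisons by no more than 0.037 and 0.685. Library totals moved the share of called genes that were higher by over 10 percentage points in 14 of 28 treatments, down in 11 (49.8% to 24.5% with 8 µM and 50.6% to 25.9% with 200 µM WY14643, 52.1% to 31.2% with 100 µM sulfasalazine, 49.2% to 32.9% with 10000 µM acetaminophen) and up in 3 (48.3% to 71.9% with 450 µM chloramphenicol). The 31 ST calls were 24, and the 19 calls of high against low 16, with the wells of a batch added, and the latter 17 without replicate 3. In batch 1 alone the L2FC of Cyp4a1 turned negative with doxorubicin at 0.08 µM (-0.20) and at 2 µM (-0.079). The 10 differences of the batches were 8 with library totals and 6 to 9 with a replicate left out, 6 without replicate 2. The 1 called log ratio became 3 with a pseudocount of 5 and 0 to 1 with a replicate left out. Without replicate 1, 2 or 3 the 126 permutations cannot pass the adjustment. Over single genes and comparisons, 2311 of 2403 values kept their direction and side of the threshold, 48 lost and 42 gained a call, and 2 reversed. No paired analysis was possible because replicate numbers only name wells in accession order. Cyp4a1 calls below about 3 reads per well are limited by depth.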
